A study of Mus musculus with 6 samples.

Results

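Solute carriers are the membrane proteins that move small molecules across cell and organelle membranes, and their genes carry the symbol Slc, a family number, a letter and a member number. The genes described here were chosen by that form of symbol alone: 122 of the 6214 genes with a single symbol on the array had it, on 155 probes. Of these, 120 genes from 34 families, on 151 probes, had enough values to be tested among 6146 such genes and 9685 features in all. Slc43a2, a large neutral amino acid transporter, and Slc9a8, a sodium-proton exchanger, had too few values in either strain and were not tested. Another 5 probes join a solute carrier symbol to that of a second gene and were left out.

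The values come from 6 two-colour cDNA arrays of whole-brain RNA from male mice aged 9 weeks. Each array set a brain taken 10 min after naloxone, an antagonist of opioid receptors, labelled with Cy5, against a brain of the same strain 10 min after saline, labelled with Cy3. On 3 arrays both brains were from NY1DD mice, a transgenic line that expresses human sickle haemoglobin and serves as a mild model of sickle cell disease, and on 3 both were from C57BL/6J mice, the inbred wild type. The labels do not say that the arrays of a strain came from separate animals, so p-values measure the spread between arrays, which may be technical. The dyes were never exchanged. A dye bias common to all arrays therefore cannot be told apart from naloxone in a strain's mean, although it cancels in the difference between strains. Values are log2 ratios, in which 1 is a doubling. They are likely naloxone over saline, following the channel order of the labels. If the ratio runs the other way, every sign below turns.

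Solute carriers work by letting a substrate bind from 1 side of a membrane and releasing it on the other, often coupled to a gradient of sodium, protons, potassium or chloride that ATP-driven pumps maintain. In brain they clear glutamate and monoamines from synapses, fill synaptic vesicles, carry glucose, lactate and amino acids across the blood-brain barrier, set the chloride gradient on which GABA acts, and regulate pH and metal ions. The large Slc25 family lies in the inner mitochondrial membrane and exchanges nucleotides, phosphate and metabolites. The Slc35 family supplies the Golgi with nucleotide sugars for glycosylation.

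The share of solute carriers with large ratios differed between arrays, as did that of other genes. Between 10.0% and 23.1% of them lay past 1.5-fold on a given array, against 8.55% to 21.2% of the other genes. Over all features, Pearson correlations between pairs of arrays ranged from 0.12 to 0.15 within C57BL/6J, from 0.02 to 0.19 within NY1DD and from -0.07 to 0.18 between strains. Pairs with NY1DD replicate 2 were the lowest, from -0.07 to 0.06. Among the members the ranges were -0.02 to 0.15, -0.03 to 0.12 and -0.11 to 0.44. There NY1DD replicate 1 correlated below 0 with every other array, from -0.11 to -0.01. The files hold ratios only, so the level of a transcript, its signal over background and the presence of brain markers could not be checked. In whole tissue a lower ratio from fewer cells of a type and from less RNA per cell cannot be told apart.

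No solute carrier passed the threshold in any comparison. None of the 120 genes had an adjusted p under 0.05 in limma (Benjamini-Hochberg over 9685 features) in NY1DD, in C57BL/6J, in the difference between them or in their average, and 0.000% of all features had in each. At an unadjusted p under 0.05 the members stood near the array as a whole. In NY1DD 9 members passed, which is 7.5% of them against 8.35% of all features. Of these 2 were positive, against a background of 3.46%, and 7 negative, against 4.89%. In C57BL/6J 9 also passed, 7.5% against 6.93%, with 3 positive (background 1.76%) and 6 negative (background 5.17%). The difference gave 2 members, 1.67% against 4.50%, with 1 positive (background 2.75%) and 1 negative (background 1.76%). The average gave 14, 11.7% against 10.8%, with 5 positive (background 3.40%) and 9 negative (background 7.37%). The median log2 ratio of the members was -0.03 in NY1DD, with 55 of 120 above 0, and 0.01 in C57BL/6J, with 62 above 0. The medians of the 6026 other genes were -0.01 and 0.00.

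Counts of members with the same sign within a strain were also near the background. Of 115 members with values on all 3 NY1DD arrays, 34 had the same sign on each, 29.6% against 28.5% of all features. In C57BL/6J 38 of 117 did, 32.5% against 31.2%. All 3 arrays lay past 1.5-fold for 1 of 115 members in NY1DD, 0.87% against 0.623%, and for 0 of 117 in C57BL/6J, against 0.991%. On all 6 arrays 11 of 115 members kept the same sign, 9.57% against 7.12%, with 5 positive (background 2.45%) and 6 negative (background 4.66%). The arrays of the strains did not overlap for 13 members, 11.3% against 9.41%. They lay on opposite sides of 0 for 6, 5.22% against 2.10%, with NY1DD above in 1 (background 1.14%) and below in 5 (background 0.959%). Subtracting from each probe the median of its plate well kept 8 of the 11 genes on the same side, without Slc20a1, Slc25a51 and Slc35e4, and others joined, for 11 in all. It kept 4 of the 6 on opposite sides, without Slc1a2 and Slc35f5, of 5 in all. It turned the sign of 21.2% of the members on NY1DD replicate 2 and of 5.98% to 15.8% on the other arrays. Shares of all features after the subtraction were not counted, so these member counts have no background beside them.

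**Figure D1:**
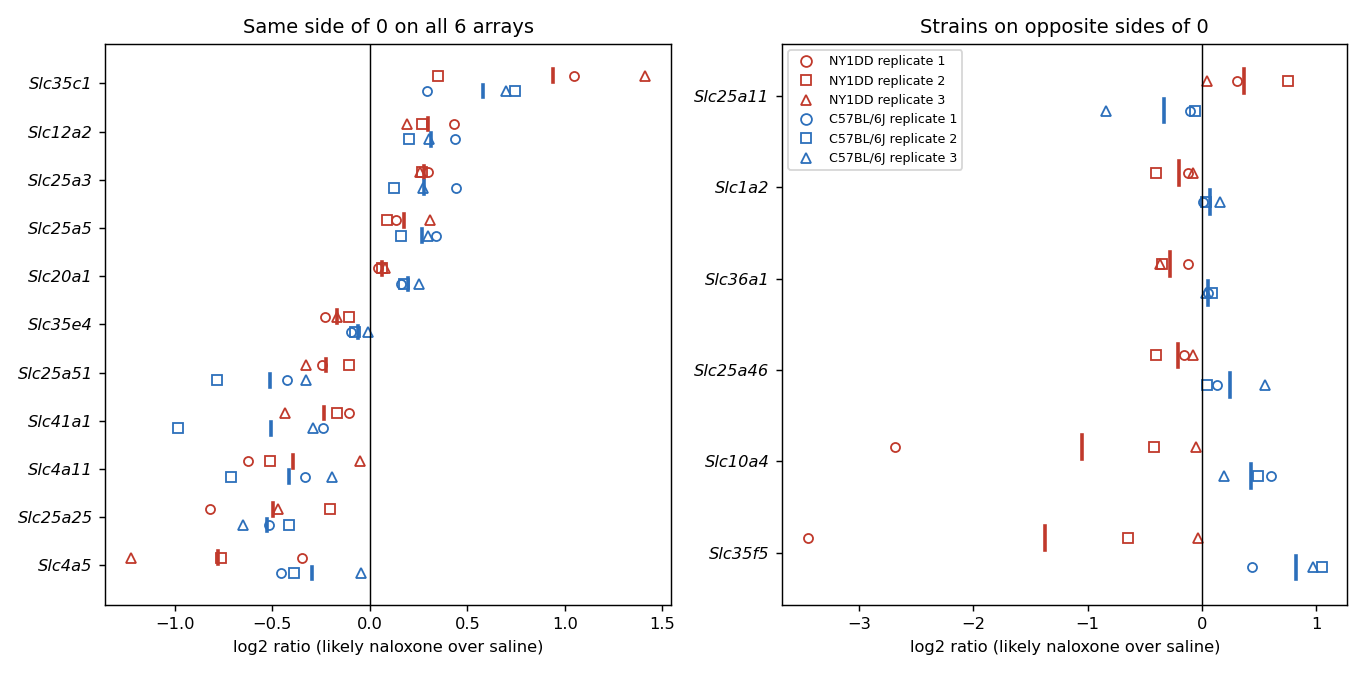
Log2 ratios (likely naloxone over saline, horizontal axis) of the 11 solute carriers on the same side of 0 on all 6 arrays (left) and of the 6 whose strains lie on opposite sides (right), with symbols for single arrays and vertical bars for strain means. On the left, averages run from -0.54 for Slc4a5 to 0.76 for Slc35c1; on the right, the lowest points are Slc35f5 at -3.45 and Slc10a4 at -2.69, both on NY1DD replicate 1.

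**Figure D2:**
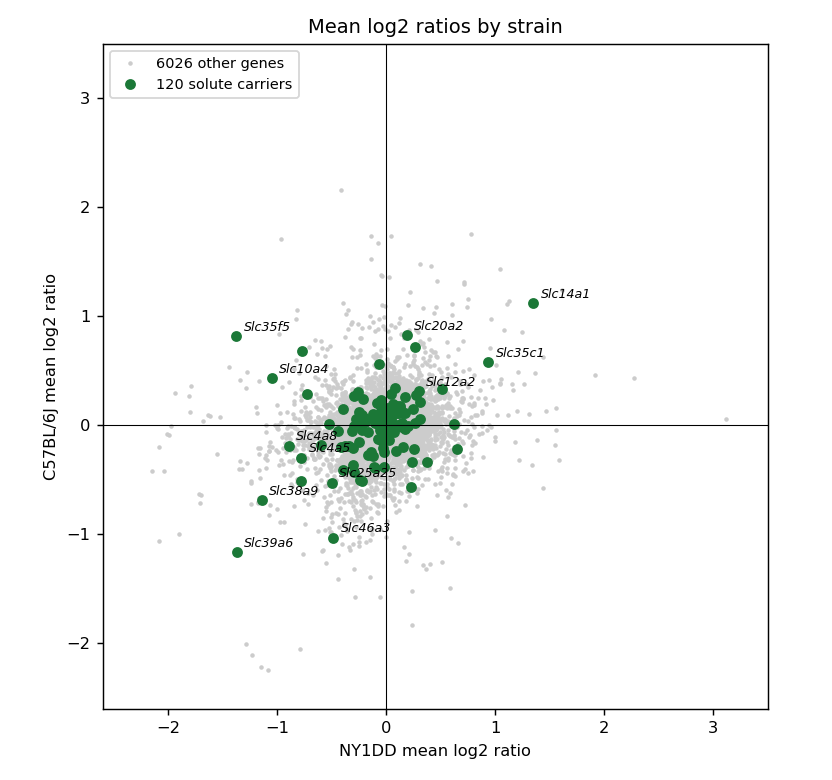
Mean log2 ratio in NY1DD (horizontal) against that in C57BL/6J (vertical) for 120 solute carriers (green) and 6026 other genes (grey). The solute carriers spread through the cloud of other genes, with Slc14a1 and Slc35c1 at the upper right and Slc38a9 and Slc39a6 at the lower left.

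Among nucleotide sugar carriers, Slc35c1, the Golgi transporter of GDP-fucose, had the smallest p of the members positive on all 6 arrays. It read 1.05, 0.35 and 1.41 on NY1DD arrays and 0.29, 0.74 and 0.70 on C57BL/6J arrays. All 6 were positive, and the strains overlapped. Its mean was 0.94 (SE 0.22, n = 3, adjusted p = 0.489) in NY1DD and 0.58 (SE 0.22, n = 3, adjusted p = 0.634) in C57BL/6J. Its average over both strains was 0.76 (SE 0.15, n = 6), with an adjusted p of 0.179 in limma. As a group, the other 13 measured Slc35 members did not share this. The family of 14 had a median of -0.07 in NY1DD, with 5 above 0, and of 0.01 in C57BL/6J, with 8 above 0. Slc35c2, a carrier close to Slc35c1 in sequence, averaged 0.15 (SE 0.09). After subtraction of well medians it averaged 0.12 and was positive on all 6 arrays, from 0.04 to 0.26. Slc35e4, an orphan member, was negative on every array and averaged only -0.12 (SE 0.09).

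Slc35f5, another orphan carrier of the family, stood at the other extreme of spread. It read -3.45, -0.65 and -0.03 in NY1DD and 0.44, 1.05 and 0.98 in C57BL/6J. NY1DD arrays were all below 0 and C57BL/6J arrays all above, but NY1DD replicate 1 lay far below the other two. The difference between strains was -2.20 (SE 0.82, adjusted p = 0.969 in limma). Without NY1DD replicate 1 it was -1.16, and the NY1DD mean went from -1.38 to -0.34. Its probe lies in plate column 12, whose well had a median of -0.92 on NY1DD replicate 2, and the difference was -1.96 after subtraction of well medians.

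The 24 members of the Slc25 family, nearly all of them mitochondrial carriers, were the largest group. Their median was 0.05 in NY1DD, with 14 above 0, and 0.12 in C57BL/6J, with 15 above 0. With single arrays left out these medians ran from 0.00065 to 0.09 and from 0.05 to 0.12. Slc25a25, a calcium-regulated carrier that exchanges ATP-magnesium for phosphate, had the smallest p of the members negative on all 6 arrays. It read -0.82, -0.20 and -0.47 in NY1DD and -0.52, -0.41 and -0.65 in C57BL/6J. Every array was negative, and the C57BL/6J values fell inside the NY1DD range. The strain means were close to each other, -0.50 (SE 0.16, adjusted p = 0.531) and -0.53 (SE 0.16, adjusted p = 0.418), and the average was -0.51 (SE 0.11, n = 6, adjusted p = 0.180 in limma). Slc25a51, a mitochondrial NAD carrier, was negative on every array as well. It read -0.25, -0.11 and -0.33 in NY1DD and -0.42, -0.78 and -0.33 in C57BL/6J. The average was -0.37 (SE 0.10, adjusted p = 0.257), and -0.18 once each plate well's median was subtracted.

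Slc25a3, which brings phosphate into mitochondria, read 0.30, 0.27 and 0.26 in NY1DD and 0.44, 0.12 and 0.27 in C57BL/6J. As centred, these arrays were among the most alike of any member. The average was 0.28 (SE 0.09, adjusted p = 0.347 in limma). After subtraction of well medians it was 0.22, and the arrays were less alike. They then read 0.39, 0.20 and 0.06 in NY1DD and 0.34, 0.08 and 0.24 in C57BL/6J. Slc25a5, an ADP/ATP carrier, read 0.13, 0.09 and 0.31 against 0.34, 0.16 and 0.30 and averaged 0.22 (SE 0.09). The other ADP/ATP carrier measured, Slc25a4, averaged 0.26 (SE 0.16), with 1.02 on NY1DD replicate 1 and -0.23 on replicate 2, which read 0.32 after subtraction of well medians. Slc25a12, the aspartate/glutamate carrier of neurons, averaged 0.17 (SE 0.15), and NY1DD replicate 2 was its sole negative array at -0.54. After subtraction of well medians that array read 0.18 and C57BL/6J replicate 1 was the sole negative at -0.06.

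For several Slc25 members the arrays of the strains did not overlap, and none passed the threshold. Slc25a11 and Slc25a46 had the strains on opposite sides of 0. Slc25a11, which exchanges 2-oxoglutarate for malate, read 0.31, 0.75 and 0.05 in NY1DD and -0.10, -0.06 and -0.84 in C57BL/6J. The strains did not overlap, but the nearest arrays were close to 0. The difference was 0.70 (SE 0.30, adjusted p = 0.969), and 0.45 without C57BL/6J replicate 3. Slc25a46, an outer membrane protein tied to mitochondrial dynamics, read -0.15, -0.40 and -0.08 against 0.13, 0.05 and 0.55. Its difference was -0.46 (SE 0.22), and -0.30 without C57BL/6J replicate 3. Slc25a42, a carrier of coenzyme A, had a difference of 0.46 (SE 0.25), and 0.24 without C57BL/6J replicate 3. Slc25a16 had 0.21 (SE 0.18), and 0.14 without that array. Slc25a17, a peroxisomal member of the family, had -0.56 (SE 0.24), which became -0.35 without NY1DD replicate 2 and -0.33 after subtraction of well medians.

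Promoters are shown for the leading genes of each sign among members on the same side on all 6 arrays, which are Slc35c1 and Slc25a3 on the positive and Slc25a25 and Slc4a5 on the negative side. Slc12a2, the other positive gene with a p below that of Slc25a3, is not shown. The sequences are RefSeq's on build GRCm38.p6, 250 bases before to 50 after an annotated start, written 5′ to 3′ along the gene's strand. Capitals mark TGACG on either strand, the core of the cAMP response element at which CREB binds. Slc35c1 is at chr2:92460469-92460768 (minus strand, 1 of 2 listed starts), Slc25a3 at chr10:91123918-91124217 (minus), Slc25a25 at chr2:32451421-32451720 (minus, 1 of 3 listed starts) and Slc4a5 at chr6:83237125-83237424 (plus).
Slc35c1: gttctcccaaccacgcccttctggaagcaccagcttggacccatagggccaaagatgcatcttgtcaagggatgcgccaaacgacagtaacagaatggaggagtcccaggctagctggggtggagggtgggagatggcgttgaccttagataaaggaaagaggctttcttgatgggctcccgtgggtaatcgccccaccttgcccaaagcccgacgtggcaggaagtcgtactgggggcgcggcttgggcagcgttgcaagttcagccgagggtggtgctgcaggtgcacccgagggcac
Slc25a3: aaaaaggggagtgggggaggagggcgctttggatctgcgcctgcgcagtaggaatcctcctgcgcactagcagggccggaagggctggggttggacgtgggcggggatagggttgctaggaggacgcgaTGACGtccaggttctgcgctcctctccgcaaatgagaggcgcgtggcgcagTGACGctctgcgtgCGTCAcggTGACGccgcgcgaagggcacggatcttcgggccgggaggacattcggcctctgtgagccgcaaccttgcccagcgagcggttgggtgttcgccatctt
Slc25a25: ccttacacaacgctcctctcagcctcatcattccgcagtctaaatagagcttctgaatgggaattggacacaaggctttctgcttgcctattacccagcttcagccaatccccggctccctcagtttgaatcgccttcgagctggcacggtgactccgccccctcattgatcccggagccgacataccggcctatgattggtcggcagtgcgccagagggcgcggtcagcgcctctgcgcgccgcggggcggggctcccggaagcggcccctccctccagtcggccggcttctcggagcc
Slc4a5: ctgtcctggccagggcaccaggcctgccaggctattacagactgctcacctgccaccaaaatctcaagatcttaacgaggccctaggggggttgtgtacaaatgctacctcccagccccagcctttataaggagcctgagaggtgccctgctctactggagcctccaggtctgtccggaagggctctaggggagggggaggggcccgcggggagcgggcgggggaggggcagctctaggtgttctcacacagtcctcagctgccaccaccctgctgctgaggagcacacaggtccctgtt
Slc25a3 had 4 matches to TGACG in its window and the other windows had 0. Among all 32851 windows of the table, 20.8% held TGACG, against 29.5% of 132 windows of 97 member genes and 32.2% of 6506 windows of other genes on the array. The full palindrome TGACGTCA, which contains TGACG on both strands, was in 1.79%, 1.52% and 3.27% of them. The GC box GGGCGG was in 35.7%, 69.7% and 62.1%. These matches are letters in a window, and the arrays measured no binding.

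Transporters of bicarbonate and protons were the group that lay lowest. The 9 measured members, 7 of the Slc4 family of bicarbonate transporters and 2 of the Slc9 family of sodium-proton exchangers, all had a mean below 0 in NY1DD, with a median of -0.40, against a median of -0.02 over all features. In C57BL/6J 5 of 9 were below 0 and the median was -0.19, which was 0.01 without C57BL/6J replicate 2 and -0.10 after subtraction of well medians. Group medians were -0.35, -0.35 and -0.28 on NY1DD arrays and -0.15, -0.17 and -0.05 on C57BL/6J arrays. This was the single group among 11 with its median on the same side of 0 on every array, and it was noticed after its values were seen. Several of its genes have a probe at a like position on the source plates, and the part of that position in the values was not tested. Of the 9 genes, 4 (Slc4a4, Slc4a5, Slc4a8 and Slc9a9) have a probe in plate column 12, which holds 12 of the 151 member probes and 8.32% of all probes, and the wells of these 4 genes had medians from -0.47 to -0.92 over all probes on NY1DD replicate 2. The other 5 genes had a median of -0.13 in NY1DD, all 5 below 0, and of -0.21 in C57BL/6J. Their median on NY1DD replicate 2 was 0.31, so without column 12 the group no longer lay on 1 side on all arrays. After subtraction of well medians 8 of 9 were below 0 in NY1DD, with a median of -0.37. The medians of all 9 genes on single arrays were then still below 0. They were -0.31, -0.22 and -0.21 in NY1DD and -0.19, -0.10 and -0.01 in C57BL/6J. Leaving out NY1DD replicate 1 gave -0.28 with 7 of 9 below 0, and leaving out replicate 3 gave -0.55. With each probe as its own feature the NY1DD median was -0.17 and the C57BL/6J median -0.06.

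**Figure D3:**
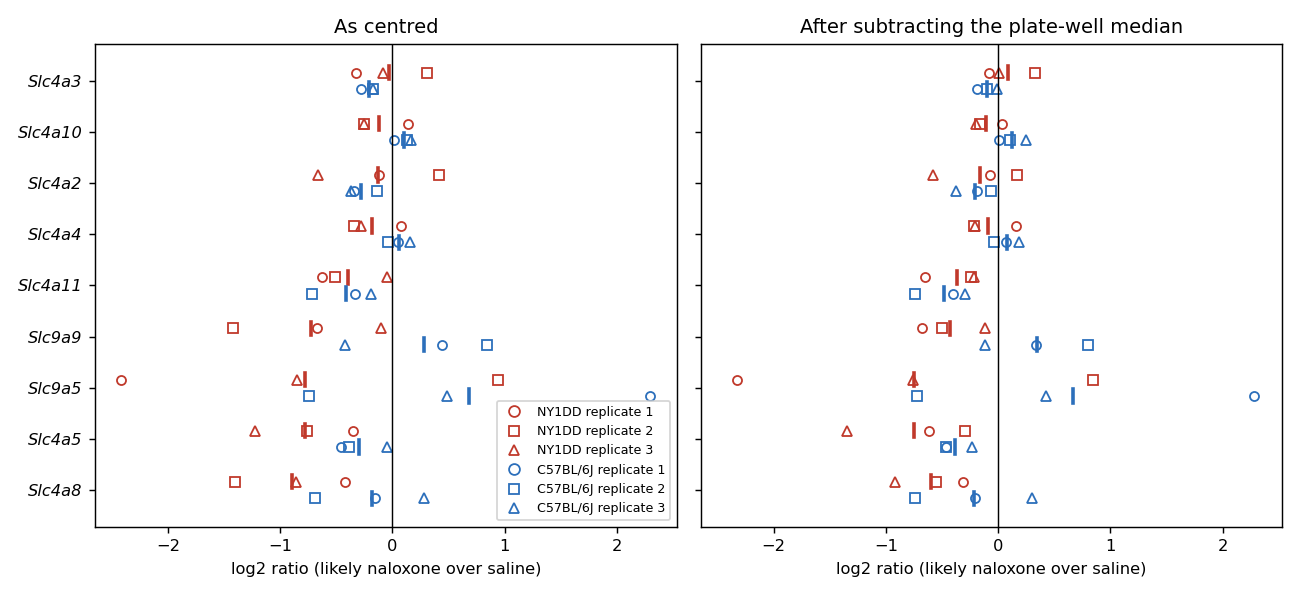
Log2 ratios of the 9 bicarbonate and proton transporters by array, as centred (left) and after subtracting the median of the plate well (right), with symbols for arrays and bars for strain means. In NY1DD all 9 means lie below 0 on the left and 8 of 9 on the right.

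The members of this group differed in how steady they were. Slc4a5, a sodium bicarbonate cotransporter of the choroid plexus, read -0.35, -0.76 and -1.22 in NY1DD and -0.45, -0.39 and -0.05 in C57BL/6J. It was negative on every array, and the strains overlapped. The NY1DD mean was -0.78 (SE 0.19, adjusted p = 0.494) and the average -0.54 (SE 0.14, adjusted p = 0.221 in limma), or -0.57 after subtraction of well medians. Slc4a11, an electrogenic proton transporter of the family, read -0.63, -0.51 and -0.05 against -0.33, -0.71 and -0.19 and averaged -0.40 (SE 0.12, adjusted p = 0.309). Both strains were negative throughout, though the C57BL/6J mean of -0.41 became -0.26 without replicate 2. Slc4a8, a sodium-driven chloride bicarbonate exchanger of neurons, read -0.42, -1.40 and -0.86 in NY1DD and -0.15, -0.69 and 0.28 in C57BL/6J. Its NY1DD mean of -0.89 (SE 0.24) became -0.59 after subtraction of well medians. Slc9a9, an endosomal sodium-proton exchanger, read -0.67, -1.42 and -0.10 in NY1DD and 0.44, 0.84 and -0.43 in C57BL/6J. Its NY1DD mean of -0.73 (SE 0.31) was -0.38 without replicate 2 and -0.43 after subtraction of well medians.

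The rest of the group gave little on their own. Slc9a5, a neuronal sodium-proton exchanger, spread widely, from -2.41 on NY1DD replicate 1 to 2.30 on C57BL/6J replicate 1. Slc4a10, a neuronal sodium bicarbonate transporter, had means of -0.12 (SE 0.14) and 0.10 (SE 0.14). Slc4a2 and Slc4a3, chloride-bicarbonate exchangers, had NY1DD means of -0.13 (SE 0.21) and -0.03 (SE 0.16). Slc4a4, the sodium bicarbonate cotransporter of astrocytes, had 4 probes, and the 1 in plate column 12 read -2.83 on NY1DD replicate 2 while the others lay between 0.00 and 1.06.

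**Figure D4:**
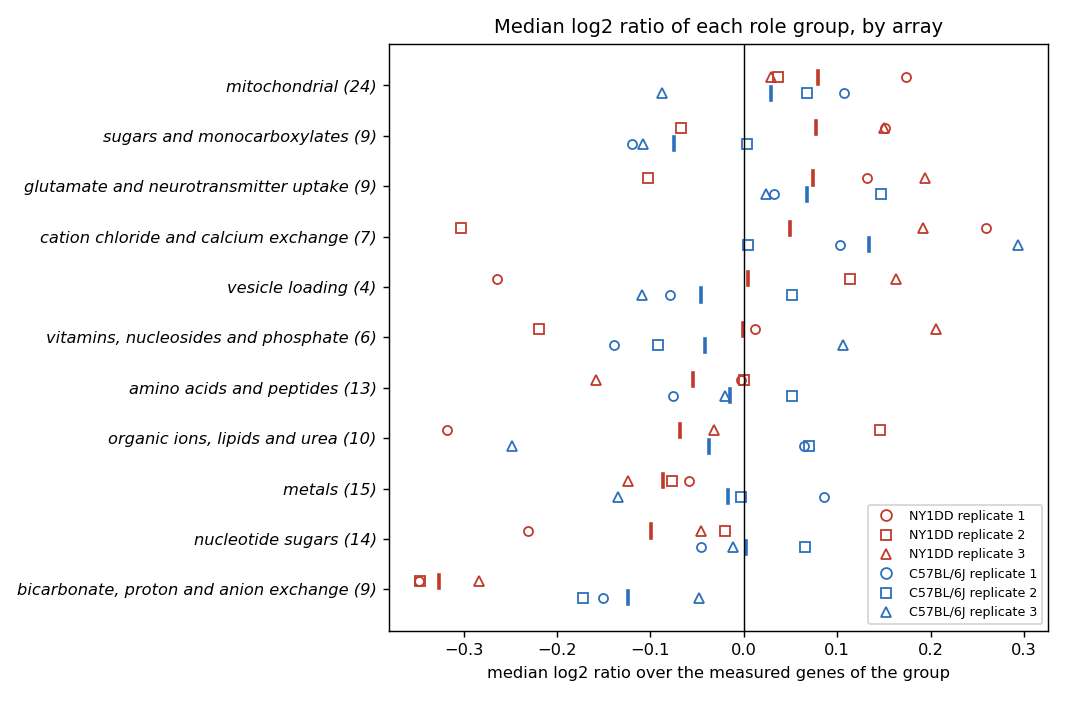
Median log2 ratio of each of 11 role groups of solute carriers on each array (horizontal axis), with the number of measured genes in brackets, symbols for arrays and bars for strain means. The bicarbonate, proton and anion group lies below 0 on all 6 arrays, from -0.35 to -0.05, and every other group crosses 0.

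Carriers of sodium, potassium, chloride and calcium had 1 gene that was positive on every array. Slc12a2, the sodium-potassium-chloride cotransporter that loads cells with chloride, read 0.43, 0.27 and 0.19 in NY1DD and 0.44, 0.20 and 0.30 in C57BL/6J. As centred, the strains gave nearly the same values, and the average was 0.31 (SE 0.09, adjusted p = 0.309 in limma). After subtraction of well medians the average was 0.24. The arrays then read 0.35, 0.39 and 0.02 in NY1DD and 0.28, 0.20 and 0.16 in C57BL/6J. Slc12a5, the potassium-chloride cotransporter that lowers chloride in neurons, averaged -0.02 (SE 0.10). The sodium-calcium exchangers Slc8a1 and Slc8a3 averaged 0.11 (SE 0.17) and 0.10 (SE 0.12), with NY1DD replicate 2 negative for both. Slc24a4, a potassium-dependent sodium-calcium exchanger, read -0.35, -0.62 and -0.19 in C57BL/6J, with a mean of -0.39 (SE 0.15), and -0.11, -0.30 and 0.12 in NY1DD. Its relative Slc24a2 averaged 0.10 (SE 0.13). The 7 genes had medians of 0.02 and 0.11 in NY1DD and C57BL/6J.

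Carriers that clear transmitters from the synapse lay near 0. The 9 measured genes had medians of -0.04 in NY1DD, with 4 above 0, and 0.01 in C57BL/6J, with 5 above 0, and none had an unadjusted p under 0.05 in either strain. Slc1a2, the main glutamate transporter of astrocytes, read -0.13, -0.41 and -0.08 in NY1DD and 0.01, 0.03 and 0.16 in C57BL/6J. The strains lay on opposite sides of 0 by a narrow margin. The difference was -0.27 (SE 0.19, adjusted p = 0.969), and -0.17 without NY1DD replicate 2. Of its 5 probes 1 lies in plate column 12, and after subtraction of well medians NY1DD replicate 3 read 0.01, so the strains no longer lay on opposite sides. Slc1a3, the other astrocytic glutamate transporter, read 0.51, -1.07 and 0.32 against 0.03, 0.32 and 0.26, so a single NY1DD array was negative. Its NY1DD mean of -0.08 (SE 0.29) was 0.10 after subtraction of well medians. Slc1a1, the neuronal one, averaged 0.01 (SE 0.11). The serotonin transporter Slc6a4 averaged 0.03 (SE 0.13), the taurine transporter Slc6a6 0.06 (SE 0.09) and the creatine transporter Slc6a8 -0.08 (SE 0.11). Slc6a9, which takes up glycine, ran from -2.09 to 0.59 over the arrays.

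Markers of astrocytes had 1 of 8 above 0 in NY1DD, with a median of -0.12, and 5 of 8 in C57BL/6J, with a median of 0.11. Array medians of this list ran from -0.21 to 0.02 in NY1DD and from -0.01 to 0.09 in C57BL/6J. Their part in the values of Slc1a2 and Slc4a4, which astrocytes express, was not tested. Markers of oligodendrocytes had 6 of 7 and 7 of 7 above 0 in the strains, and markers of neurons 7 of 10 and 6 of 10.

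The vesicle loaders gave no common direction. Slc17a6, which fills vesicles with glutamate, read 0.20, 0.44 and 0.40 in C57BL/6J and 0.24, -0.21 and 0.21 in NY1DD. Its C57BL/6J mean of 0.34 (SE 0.15) was 0.17 after subtraction of well medians, and NY1DD replicate 2 then read 0.44, so that all 6 arrays were positive. Slc17a7, the cortical counterpart, had means of 0.14 (SE 0.14) and -0.01 (SE 0.14) in NY1DD and C57BL/6J. Slc32a1, which loads GABA and glycine, had a C57BL/6J mean of -0.38 (SE 0.28), and 0.15 without C57BL/6J replicate 3, a fit that also loses 1 of its 2 probes to the minimum number of values.

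Amino acid and peptide carriers included the single member past 1.5-fold on all NY1DD arrays. Slc38a9, the lysosomal arginine sensor of the mTORC1 pathway, read -0.87, -1.23 and -1.32 in NY1DD and -0.68, -1.51 and 0.14 in C57BL/6J. All but C57BL/6J replicate 3 were well below 0. The NY1DD mean was -1.14 (SE 0.29, adjusted p = 0.494) and the C57BL/6J mean -0.69 (SE 0.29). Slc38a3, a glutamine transporter of astrocytes, averaged -0.65 (SE 0.24, adjusted p = 0.409), with 0.28 on NY1DD replicate 2 as the positive array. Slc38a1, a neuronal glutamine transporter, averaged 0.08 (SE 0.13). Slc36a1, a lysosomal proton-coupled amino acid transporter, read -0.12, -0.35 and -0.36 against 0.06, 0.08 and 0.03. Its strains lay apart with a small difference of -0.34 (SE 0.18, adjusted p = 0.969). Slc7a4 read 0.59, 0.09 and 0.24 in NY1DD, a mean of 0.31 (SE 0.16) that was 0.17 without replicate 1. Slc3a2, the heavy chain of several amino acid exchangers, averaged 0.05 (SE 0.10). The 13 genes had medians of 0.01 and 0.00.

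Metal carriers held the widest spread of all members. Slc39a6, a zinc importer, ran from -4.01 on NY1DD replicate 3 to 1.33 on replicate 1, and its C57BL/6J values reached -3.02 on replicate 3. Slc39a4, another zinc importer, read 0.44, 1.24 and 0.27 in NY1DD and -1.01, 0.15 and 0.21 in C57BL/6J. The strains did not overlap. The difference was 0.87 (SE 0.41), and 0.57 without NY1DD replicate 2 or 0.47 without C57BL/6J replicate 1. Slc41a1, a magnesium transporter, was negative on every array, with -0.11, -0.17 and -0.44 in NY1DD and -0.24, -0.98 and -0.29 in C57BL/6J. Its average was -0.37 (SE 0.13, adjusted p = 0.371), and its C57BL/6J mean of -0.51 was -0.27 without replicate 2. Of 5 zinc exporters of the Slc30 family, 4 were below 0 in NY1DD, among them Slc30a1, the plasma membrane exporter, at -0.44 (SE 0.18), or -0.23 after subtraction of well medians. Its C57BL/6J mean was -0.05 (SE 0.18). Slc30a3, which loads zinc into synaptic vesicles, averaged -0.10 (SE 0.11), and the zinc importer Slc39a10 averaged -0.10 (SE 0.11). The 15 genes had medians of -0.08 and -0.01.

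Sugar and monocarboxylate carriers had medians of 0.03 and -0.03 over 9 genes. Slc2a1, the glucose transporter of the blood-brain barrier, averaged 0.08 (SE 0.11). Slc2a3, that of neurons, read -0.33, -0.09 and -0.49 in NY1DD and -0.41, -0.23 and 0.02 in C57BL/6J. Its NY1DD mean of -0.30 (SE 0.15) was -0.09 after subtraction of well medians, and its C57BL/6J mean of -0.21 was -0.04. Slc16a1, a lactate transporter, had usable values on 4 arrays that ran from -1.31 to 1.36. It was at the lower limit of the table on C57BL/6J replicate 3, and with that value kept its C57BL/6J mean went from 0.03 to -2.20.

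Among organic ion, lipid and urea carriers, Slc14a1 had large ratios that depended on a missing value. Slc14a1, a urea transporter that is found on red cells and in brain on astrocytes, read 0.56 and 2.14 on NY1DD replicates 1 and 3 and 1.00 and 1.25 on C57BL/6J replicates 1 and 2. All 4 were positive, but C57BL/6J replicate 3 was at the lower limit of the table and NY1DD replicate 2 gave no value, and the fit left both out. With the limit value kept, the C57BL/6J mean was -1.47 and the average -0.06. The means were 1.35 (SE 0.39) and 1.12 (SE 0.39), and the average of 1.24 (SE 0.28) had an adjusted p of 0.232 in limma. Slc10a4, a vesicle protein of cholinergic and monoaminergic neurons, read -2.69, -0.42 and -0.05 in NY1DD and 0.61, 0.49 and 0.19 in C57BL/6J. The strains lay on opposite sides, and NY1DD replicate 1 lay far below the rest. The difference was -1.48 (SE 0.65, adjusted p = 0.969), and -0.66 without that array. Slc22a17, a receptor for lipocalin, averaged 0.01 (SE 0.12).

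Phosphate, vitamin and nucleoside carriers showed 1 very steady and several erratic genes. Slc20a1, a sodium-phosphate cotransporter, read 0.04, 0.06 and 0.08 in NY1DD and 0.16, 0.18 and 0.25 in C57BL/6J. All 6 were positive and small, and the C57BL/6J values lay above the NY1DD values. The average was 0.13 (SE 0.09), and 0.05 after subtraction of well medians, when NY1DD replicates 1 and 2 read -0.18 and -0.04. Its relative Slc20a2 ran from -1.17 to 2.37. Slc46a3, a lysosomal carrier, read -2.34, -0.71 and -0.04 in C57BL/6J, a mean of -1.03 (SE 0.56) that was -0.37 without replicate 1.

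Genes with several probes gave a check between probes of a gene on the same arrays. Of the 120 members, 94 had 1 probe, and among them are Slc35c1, Slc25a25, Slc4a5, Slc38a9 and Slc12a2. In 24 members with 2 probes, the signs of the probes' means over 6 arrays were the same in 8, or 33.3%, against 50.1% of 1006 other genes with 2 probes. In NY1DD the signs matched for 12 members, 50% of them against 52.8% of the other genes, and in C57BL/6J for 13, 54.2% against 49.4%. On single arrays the share of members with matching signs ran from 37.5% to 79.2%, and that of other genes from 50.5% to 54.9%. Across genes, the Pearson correlation between a gene's probes was -0.01 for members and -0.02 for other genes, as a description over genes that are not independent. A few members had probes with like values. The probes of Slc25a12 read -0.42 and -0.67 on NY1DD replicate 2 and 0.52 and 0.32 on C57BL/6J replicate 2. On NY1DD replicate 2 their wells had medians of -0.47 and -0.97, and after subtraction the probes read 0.05 and 0.30. Those of Slc39a10 read -0.26 and -0.53 on NY1DD replicate 2 and 0.23 and 0.28 on C57BL/6J replicate 3. Other members did not. The 5 probes of Slc1a2 had NY1DD means from -0.51 to 0.09, and for Slc25a36, a pyrimidine nucleotide carrier, 1 probe read 4.32 on C57BL/6J replicate 3 and the other 0.08.

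**Figure D5:**
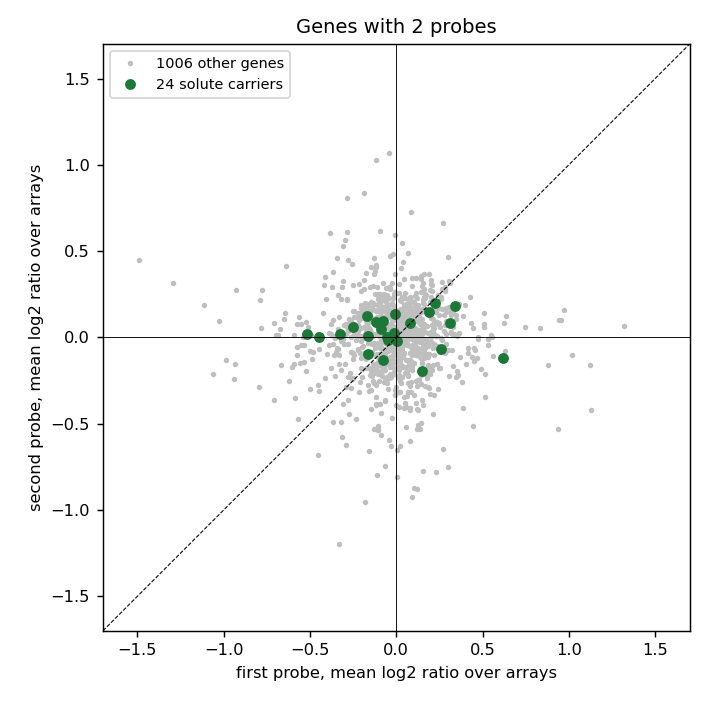
Mean log2 ratio over arrays of the first (horizontal) and second (vertical) probe of genes with 2 probes, for 24 solute carriers (green) and 1006 other genes (grey), with the line of equality dashed. Neither set follows the line.

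Other transport genes were set beside the solute carriers as lists. Of 18 ABC transporters, the ATP-driven efflux family, 6 were above 0 in NY1DD, with a median of -0.18, and 7 in C57BL/6J, with a median of -0.04. Of 16 measured subunits of the vesicular proton pump, which energises vesicle loading, 8 and 10 were above 0. Of 14 partners and regulators of transporters, 4 were above 0 in NY1DD and 10 in C57BL/6J. None of the genes in these lists had an adjusted p under 0.05. In limma, 10.8% of all features had an unadjusted p under 0.05 for the average. In these lists Abcc8 did at -0.46, Abca5 at -0.94, Abca2 at -0.31, Atp6v0d1 at 0.27 and Vdac2 at 0.25. Of the calcium pumps, Atp2b4 averaged 0.54, Atp2b1 0.24, Atp2a2 0.01 and Atp2b2 -0.11. Of the enzymes of carried substrates, Gad1, which makes the GABA that Slc32a1 loads, was the lowest. It averaged -0.65 (SE 0.17, adjusted p = 0.221 in limma), with 0.28 on NY1DD replicate 2. The others averaged 0.28 for Mdh1, 0.26 for Glud1, 0.23 for Got1, 0.19 for Mdh2, 0.12 for Ldha and 0.09 for Ddc. Got2 averaged 0.01, Maoa -0.02, Glul -0.07 and Abat -0.07. Of the subunits of the sodium pump, on whose gradient many of these carriers depend, Atp1b3 averaged 0.29, Atp1b1 -0.08 and Atp1b2 -0.23.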

How the data were processed

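The values are natural log ratios of Cy5 over Cy3, or the reverse, on 6 two-colour cDNA arrays, deposited by the authors in a table of the whole series. The background correction, normalization and software were not given in the sources used here, and depth has no meaning for arrays, whose number (3 per strain) limits precision. Values were changed to log2. Those at the lower limit of the table, a ratio of 0.01, were set as missing (293 in all, 7 in members). Probes needed 2 values per strain, arrays were centred on their medians, and probes with the same single symbol in the platform annotation were averaged. Strain means, their difference and their average were tested with limma 3.58.1 in R 4.3.3 over 9685 features from 11340 probes (prior degrees of freedom 3.13), and p-values were adjusted by Benjamini-Hochberg. The fit was tested on simulated independent noise with added shifts larger than any member's strain mean. Plate-well and dye effects were not simulated, so this does not bear on effects of the size seen here. All 120 symbols matched the RefSeq table of GRCm38.p6. Genes were named by a rule: in each comparison, up to 6 per side by smallest p among members with all 6 arrays and 1 sign on the arrays used (for the difference, strains that do not overlap), plus a panel of 43 brain transporters, of which 29 were measured. The rule also took genes of the lists of other genes with an unadjusted p under 0.05. These were Gad1, Atp2b4, Atp1b3, Abcc8, Abca5, Abca2, Atp6v0d1 and Vdac2. Slc14a1, Slc38a3, Slc30a1, Slc35c2, Slc39a6, Slc9a5, Slc8a3, Slc20a2, Slc25a36, Slc4a2 and Slc4a3 fall outside the rule and were chosen after their values were seen. The calcium and sodium pump genes and Gad1 were also picked after their values were seen. The other enzymes of carried substrates were listed beside Gad1. The members and lists were chosen with earlier results of these data known. Arrays with the same replicate number in both strains were not treated as pairs. Their deviations correlated at -0.07, 0.06 and 0.02. Correlations between all arrays were low, so this check cannot exclude a pairing. C57BL/6J replicates 1 and 2 share a number of unstated meaning in their titles. Alternatives were other settings for missing values, filters, centring, scaling, probes and plate wells, a replicate block, and each array left out.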

Additional observations from a re-analysis of the deposited data

Results flagged for a closer look

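For 6 members every NY1DD array lay on one side of 0 and every C57BL/6J array on the other, with the strain difference tested in limma and past no threshold (adjusted p = 0.969 for each). The difference, NY1DD minus C57BL/6J, was -2.20 for Slc35f5, -1.48 for Slc10a4, 0.70 for Slc25a11, -0.46 for Slc25a46, -0.34 for Slc36a1 and -0.27 for Slc1a2. Such a split was found in 2.10% of all features and in 5.22% of the members. After subtraction of plate-well medians 4 of the 6 still split in this way, and Slc1a2 and Slc35f5 did not. The share of all features that split after this subtraction was not counted.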

How the results depend on the processing

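Under all 14 settings tried with limma, 0 features passed the adjusted threshold in any comparison. The 46 results for named genes kept their sign, with a smallest adjusted p of 0.118. In size, 22 of the 46 moved by over 1.5 times under some setting. Genes were named for 1 sign on every array used, or for strains that do not overlap. Leaving out an array could therefore hardly turn these signs. The named genes also needed values on all 6 arrays, so settings for missing values and filters could change little. Counts of members at an unadjusted p under 0.05 moved more. The difference between strains, with 2 such members, had 1 with limit values kept, 1 without the filter, 1 without centring, 4 with the replicate number as a block, and 1 to 6 with single arrays left out. Leaving out single arrays gave 6 to 14 for NY1DD (9 with all, 14 without NY1DD replicate 2), 2 to 9 for C57BL/6J (9 with all, 4 without replicate 1 and 2 without replicate 2) and 8 to 22 for the average (14 with all, 22 without NY1DD replicate 2, 8 without C57BL/6J replicate 1 or 2). Counts over all features moved in these fits too. They ran from 591 to 1122 for NY1DD (809 with all) and from 473 to 741 for C57BL/6J (671 with all). For the average they ran from 812 to 1399 (1043 with all). Features tested numbered 9379 to 9579 in these fits, against 9685 with all arrays. The NY1DD median of the members, -0.03, was -0.0013 without centring and ran from -0.0566 to -0.0103 with single arrays left out. The cause was not tested. Of 22 strain medians of role groups, 21 moved by over 1.5 times and 15 turned in sign when some array was left out. Over all features, the difference had 436 at an unadjusted p under 0.05, and 398 to 511 under the other settings with all arrays. With single arrays left out it had 282 (without C57BL/6J replicate 3) to 562. Leaving out the column 12 genes of the bicarbonate group was chosen after seeing the data. A random block on the title number could not be fitted and was not run, and a fit per probe gives no single value for genes with several probes. Without intensities, signal over background sets no limit that can be stated.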
